A study of Homo sapiens with 12 samples.

Results

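Interferon-stimulated genes are the genes that cells switch on when interferon binds its receptor. A list of 40 such genes was followed in 2 human leukaemia cell lines exposed to obatoclax. Each gene was read from the probe sets of the array whose platform annotation named that gene alone, and where there were several, from the one with the highest mean over the 12 arrays. STAT2 had no such probe set and was not analysed here. The other 39 were among 19775 genes with a probe set of 1 symbol, and 32 of them were among the 10561 genes tested because their probe set exceeded 4 on the log2 scale on at least 2 arrays. A log2 value of 4 is called the floor here, and a group mean under it was read as not above background.

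SEM-K2 and RS4:11 are established lines of acute lymphoblastic leukaemia whose cells carry the MLL-AF4 (KMT2A-AFF1) fusion. Cells of each line were kept for 6 h in obatoclax, a small molecule made to block the antiapoptotic BCL2 proteins, or in vehicle. The 6 groups were SEM-K2 under vehicle, obatoclax at the EC50 of a 72 h assay and obatoclax at 3 times that concentration (3xEC50), and the same 3 for RS4:11, with 2 biologic replicates and 1 Affymetrix U133 Plus 2 array for each replicate. Neither the concentrations nor the day or passage of a replicate are known here, and a p-value therefore reflects how far these particular samples scatter. No group was treated with interferon. The 2 lines stand for themselves and are no sample of leukaemias.

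In textbook terms, type I interferons bind IFNAR1 and IFNAR2, the kinases JAK1 and TYK2 are activated, and a complex that holds STAT2 and IRF9 forms and binds a promoter element called the ISRE. The induced proteins sense viral RNA (IFIH1, the OAS enzymes, EIF2AK2), bind it (IFIT proteins), attach the small protein ISG15 to other proteins (HERC5) or remove it (USP18). USP18 also sits on IFNAR2 and damps further signalling, and IRF1 and IRF7 are transcription factors of the same system.

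Under obatoclax the largest change among these genes was that of USP18, which rose at least 4.83-fold averaged over both lines and both doses (limma, adjusted p = 0.0039). That is a lower bound, because its level in RS4:11 without drug was below the floor. The p-values beside this and the other USP18 bounds come from fits to the values as they are, not set to the floor. OAS3 and HERC5 rose by log2 values of 0.46 ± 0.08 and 0.53 ± 0.10 (SE) in that average, with the larger changes in SEM-K2. Of the 12 fits that each left out 1 array, OAS3 lost its call in 12 and HERC5 in 11, and USP18 passed in all. The changes of the other 29 genes tested did not pass the test there, where 0.833% of all genes did. With the replicate number as a block, IFIH1, OAS1, OAS2, DDX60 and IFIT3 passed as well, where 4.1% of all genes did. Of all 32 genes, 28 had a mean change above 0, against 59.3% of all genes. ISG15 itself, EIF2AK2 and BST2 had mean changes of −0.04, 0.03 and 0.04, and MX1, IFI27, IFI44L, OASL and EPSTI1 were not above the floor on any array.

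The arrays were similar in overall level, with medians over the genes tested of 8.27 to 8.34 on 10 arrays, 8.17 on SEM-K2 vehicle replicate 2 and 8.22 on RS4:11 vehicle replicate 2. The median over the 32 genes was 7.68 and 7.19 on the SEM-K2 vehicle arrays. There 26 of the 32 were higher on replicate 1, as were 62.5% of all genes tested. The genes called against SEM-K2 vehicle are therefore also given without replicate 2. SEM-K2 3xEC50 replicate 2 stood apart in RNA quality: its ACTB 3′ minus 5′ signal was 1.97 log2 units, against 0.87 to 1.23 on the other 11 arrays. All 11 B-lineage markers with a probe set, such as PAX5 and CD79A, were above the floor on at least 2 arrays, and MEIS1, FLT3 and CSPG4 were above it on all 12. CLEC4C, LILRA4 and GZMB, markers of plasmacytoid dendritic cells, which are strong interferon producers, were above it on 0 arrays, and 4 of 7 markers of that cell type (IL3RA, TCF4, NRP1 and PTCRA) were above it on at least 2. The same held for 1 of 7 monocyte markers (CSF1R) and 1 of 9 T or NK cell markers (NKG7). In SEM-K2 all group means of NRP1 and of the B-lineage markers BLNK and DNTT were below the floor. In bulk RNA, fewer cells expressing a gene and less RNA per cell cannot be told apart.

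Promoter sequences, from 250 bases before to 50 after the start site, were taken from RefSeq for GRCh38.p14 and were found for 32 of the 39 genes. They were not at hand for USP18, IFIT2, OAS2, OASL, MX2, IRF7 and TRIM22. The core of the ISRE, GAAA, any 2 bases and GAAA, read on both strands, was present in 22 of the 32 and in 3.65% of all 27305 promoters in the table. The core of the GAS element, a promoter element of the interferon gamma response, TTC, any 3 bases and GAA, which reads the same on both strands, was present in 9 of the 32 and in 7.88% of all promoters. Promoters are printed 5′ to 3′ on the gene's strand for OAS3 and HERC5, which rose, for the RNA sensors IFIH1, DDX60 and OAS1, for ISG15, which was expressed and did not pass the test in any comparison, and for MX1, which was not above the floor. Capitals mark the bases of ISRE core matches, which can overlap each other, and OAS1 has no such match in this window. GAAA units spaced by fewer than 2 bases, which the OAS1 window holds, are not counted. A match is a string of letters and not evidence of binding, and the lack of a match does not show that an ISRE is absent.
OAS3 (chr12:112938224-112938523, plus strand): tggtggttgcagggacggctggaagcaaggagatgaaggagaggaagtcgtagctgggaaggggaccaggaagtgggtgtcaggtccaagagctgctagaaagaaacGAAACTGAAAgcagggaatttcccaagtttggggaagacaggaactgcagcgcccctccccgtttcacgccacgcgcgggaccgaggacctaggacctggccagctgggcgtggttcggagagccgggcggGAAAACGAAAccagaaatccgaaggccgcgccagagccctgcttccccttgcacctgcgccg
HERC5 (chr4:88456869-88457168, plus strand): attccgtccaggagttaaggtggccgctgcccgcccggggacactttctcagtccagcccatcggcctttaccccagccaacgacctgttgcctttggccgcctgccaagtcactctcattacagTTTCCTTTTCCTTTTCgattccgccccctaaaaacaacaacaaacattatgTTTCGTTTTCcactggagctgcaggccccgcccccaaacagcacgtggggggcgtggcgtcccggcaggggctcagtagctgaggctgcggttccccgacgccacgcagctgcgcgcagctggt
IFIH1 (chr2:162318635-162318934, minus strand): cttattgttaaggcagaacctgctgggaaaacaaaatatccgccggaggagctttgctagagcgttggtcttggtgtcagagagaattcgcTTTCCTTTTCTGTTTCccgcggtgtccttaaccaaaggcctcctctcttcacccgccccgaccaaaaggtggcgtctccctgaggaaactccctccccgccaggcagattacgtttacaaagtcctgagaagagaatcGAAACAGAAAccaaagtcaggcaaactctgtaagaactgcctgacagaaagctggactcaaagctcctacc
DDX60 (chr4:168318703-168319002, minus strand): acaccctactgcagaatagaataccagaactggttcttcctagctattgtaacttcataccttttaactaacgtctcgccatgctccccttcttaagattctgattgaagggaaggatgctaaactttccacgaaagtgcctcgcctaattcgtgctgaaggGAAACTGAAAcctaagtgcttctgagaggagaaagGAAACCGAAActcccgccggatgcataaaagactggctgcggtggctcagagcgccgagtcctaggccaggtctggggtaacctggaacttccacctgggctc
OAS1 (chr12:112906712-112907011, plus strand): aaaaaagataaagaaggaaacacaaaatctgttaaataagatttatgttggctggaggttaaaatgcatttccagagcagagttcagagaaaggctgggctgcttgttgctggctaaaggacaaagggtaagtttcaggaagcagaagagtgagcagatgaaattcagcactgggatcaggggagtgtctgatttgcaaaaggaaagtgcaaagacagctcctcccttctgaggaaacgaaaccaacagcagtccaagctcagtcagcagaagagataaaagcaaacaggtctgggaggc
ISG15 (chr1:1013247-1013546, plus strand): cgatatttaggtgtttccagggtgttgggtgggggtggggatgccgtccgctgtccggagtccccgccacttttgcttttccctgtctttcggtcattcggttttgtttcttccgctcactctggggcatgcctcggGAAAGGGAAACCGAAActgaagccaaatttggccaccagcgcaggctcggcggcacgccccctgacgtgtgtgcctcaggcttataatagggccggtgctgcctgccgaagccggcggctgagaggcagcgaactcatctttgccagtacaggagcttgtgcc
MX1 (chr21:41420308-41420607, plus strand): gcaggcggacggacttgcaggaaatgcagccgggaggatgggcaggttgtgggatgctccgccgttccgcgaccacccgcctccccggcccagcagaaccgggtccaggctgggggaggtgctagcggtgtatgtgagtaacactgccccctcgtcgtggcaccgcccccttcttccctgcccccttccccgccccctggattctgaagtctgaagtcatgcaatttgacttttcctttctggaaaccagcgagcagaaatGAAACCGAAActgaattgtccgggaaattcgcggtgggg
The first ISRE core match began 143 bases before the start site in OAS3, 125 in HERC5, 159 in IFIH1, 88 in DDX60 and 113 in ISG15, and 11 bases after it in MX1. Among the 26 genes that were tested and had a promoter, the 17 with an ISRE core had a median log2 change under obatoclax, averaged over both lines and doses, of 0.21, and the 9 without one had a median of 0.43. Over all genes tested with a promoter, the same medians were 0.04 with and 0.04 without an ISRE core.

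Of the 39 genes, 31 exceeded the floor on all 12 arrays and USP18 on 11. IFIT1 and RSAD2 exceeded it on 1 array each and were not tested. IFIT1, which binds viral RNA caps, read 4.06 on RS4:11 3xEC50 replicate 1 and between 2.59 and 3.30 on the other 11 arrays. RSAD2, the antiviral enzyme viperin, read 4.03 on RS4:11 vehicle replicate 1 and between 3.47 and 3.71 elsewhere. MX1, an antiviral GTPase often used as a marker of interferon exposure, stayed between 2.10 and 2.14. IFI27 lay between 2.01 and 2.04, EPSTI1 between 2.41 and 2.45, OASL between 2.19 and 2.27 and IFI44L between 2.05 and 2.38. The interferons that could start such a response were also below the floor: 18 of 20 interferon ligand genes, IFNB1 and IFNG among them, had a probe set, and all 18 lay between 1.97 and 2.92 on every array, while IFNA6 and IFNL3 were not analysed here. Levels below the floor on this array do not show that an RNA was absent.

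**Figure D1:**
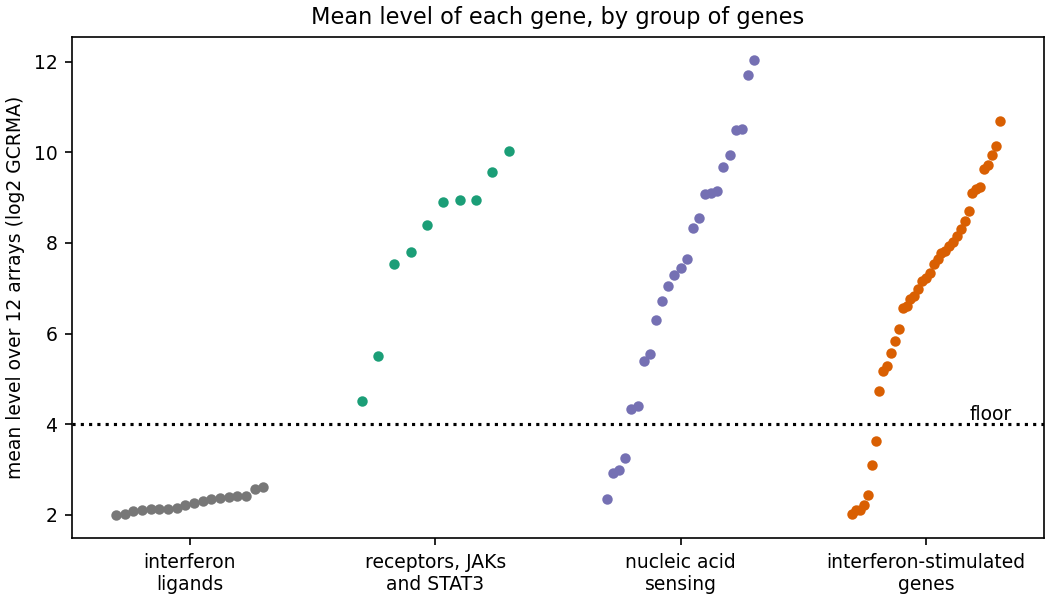
Mean level over 12 arrays (log2 GCRMA, y axis) of each gene with a probe set, for 18 interferon ligands, 10 receptor and signalling genes, 25 nucleic acid sensing genes and 39 interferon-stimulated genes; the dotted line is the floor of 4. All ligands lie below the floor and 32 of the interferon-stimulated genes lie above it.

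USP18, the ISG15-removing protease, read 6.85 and 5.40 in SEM-K2 under vehicle, 8.04 and 7.99 at EC50, and 8.21 and 8.65 at 3xEC50. In RS4:11 it read 3.83 and 4.03 under vehicle, 6.14 and 6.46 at EC50, and 6.37 and 6.82 at 3xEC50. Every treated array lay above both vehicle arrays of its line, and the vehicle mean of RS4:11, 3.93, was just below the floor. In SEM-K2 the log2 change at 3xEC50 was 2.30 ± 0.40 (4.93-fold, adjusted p = 0.039), and at EC50 it was 1.89 ± 0.40 (adjusted p = 0.21). In RS4:11 the change at 3xEC50 was at least 6.03-fold (adjusted p = 0.24) and at EC50 at least 4.92-fold (adjusted p = 0.22). Both folds were measured from the floor, and the p-values are those of the values not set to it.

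Over both doses USP18 rose in SEM-K2 by 2.10 ± 0.34 (adjusted p = 0.031). In RS4:11 the same change was at least 5.45-fold from the floor, with an adjusted p of 0.11, which became 0.045 with the replicate number as a block. Of the 10561 genes tested, USP18 ranked 12th by log2 change in SEM-K2 at both doses. The size in SEM-K2 depended on which vehicle array was kept. Without vehicle replicate 2 the change at 3xEC50 was 1.58 (adjusted p = 0.11), and without replicate 1 it was 3.03 (adjusted p = 0.0061). Leaving out any 1 of the other 10 arrays left the adjusted p above 0.05, between 0.052 and 0.26. Over both doses in SEM-K2 the change was 1.37 without vehicle replicate 2 (adjusted p = 0.16) and 2.82 without replicate 1 (adjusted p = 0.0060). The average over both lines and doses passed in all 12 fits that left out 1 array. A pseudogene listed by RefSeq as USP41P, with the synonym USP18B, is a near copy, and the probe set of USP18 may share signal with it.

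ISG15, the ubiquitin-like protein that USP18 removes, read 8.79 and 8.21 in SEM-K2 under vehicle, 8.43 and 8.78 at EC50, and 8.38 and 8.37 at 3xEC50. RS4:11 gave 8.33 and 8.69 under vehicle, 8.27 and 8.41 at EC50, and 8.29 and 8.74 at 3xEC50. Each treated group overlapped the vehicle group of its line, and the mean change over both lines was −0.04 ± 0.15 (adjusted p = 0.93).

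HERC5, the ligase that attaches ISG15, read 8.68 and 8.54 in SEM-K2 under vehicle, 9.49 and 9.21 at EC50, and 9.45 and 9.32 at 3xEC50. The RS4:11 values were 7.33 and 7.26 under vehicle, 7.71 and 7.43 at EC50, and 7.63 and 7.62 at 3xEC50. All treated arrays lay above the vehicle arrays of their line. Over both doses HERC5 rose in SEM-K2 by 0.76 ± 0.14 (1.69-fold, adjusted p = 0.044), and its change in RS4:11 was 0.30 ± 0.14 (adjusted p = 0.85). At 3xEC50 in SEM-K2 alone the change was 0.78 ± 0.16, with an adjusted p of 0.075 that became 0.018 with the replicate block. The SEM-K2 rise over both doses failed the test in each of the 12 fits without 1 array, with changes of 0.69 to 0.83 and adjusted p up to 0.38 without SEM-K2 vehicle replicate 2. HERC6, a related ligase-like protein, read 5.24 and 5.33 in SEM-K2 under vehicle, 5.66 and 5.96 at EC50, and 5.48 and 5.83 at 3xEC50. In RS4:11 its replicates differed more than its groups, with 4.60 and 5.28 under vehicle, 4.57 and 5.41 at EC50, and 4.11 and 5.86 at 3xEC50. Its mean change of 0.25 ± 0.31 did not pass the test (adjusted p = 0.76).

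**Figure D2:**
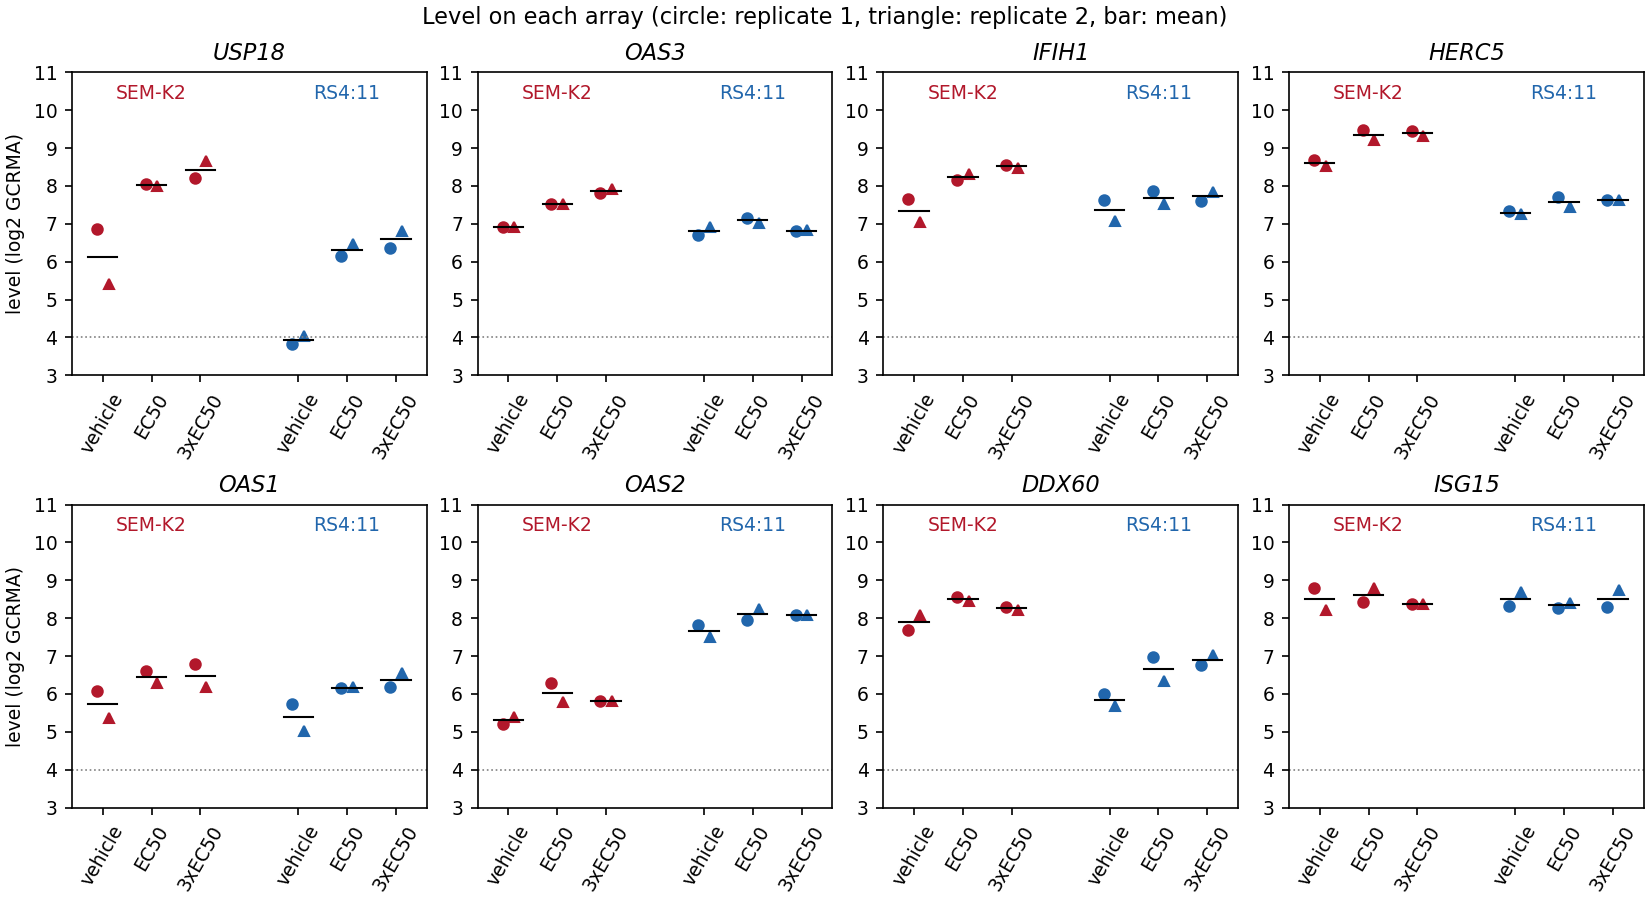
Level (log2 GCRMA, y axis) of USP18, 3 OAS genes, IFIH1, HERC5, DDX60 and ISG15 on each array, by line and dose (x axis); circles are replicate 1, triangles replicate 2, black bars group means and the dotted line the floor. USP18 lies higher on all treated arrays of both lines, at 6.14 to 8.65, and ISG15 stays between 8.21 and 8.79 in all groups.

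On the probe sets used, the 6 sensors and effectors of double-stranded RNA that were tested all had changes above 0 in the average over both lines and doses. Their median was 0.61, and EIF2AK2 was below 0 on another probe set. OAS3 alone of the 6 passed the test in that average, where 0.833% of all genes did, and 5 (IFIH1, OAS1, OAS2, OAS3 and DDX60) passed with the replicate block, where 4.1% of all genes did. OAS3, which makes the short oligoadenylates that activate RNase L, read 6.91 and 6.92 in SEM-K2 under vehicle, 7.53 and 7.51 at EC50, and 7.82 and 7.92 at 3xEC50. Levels in RS4:11 were 6.71 and 6.91 under vehicle, 7.16 and 7.02 at EC50, and 6.80 and 6.84 at 3xEC50. The 3 SEM-K2 groups did not overlap and followed the dose, and in RS4:11 only the EC50 arrays lay above both vehicle arrays. In SEM-K2 the change at 3xEC50 was 0.95 ± 0.13 (1.94-fold, adjusted p = 0.016), and the rise over both doses was 0.78 ± 0.12 (adjusted p = 0.020). The 3xEC50 call was lost without SEM-K2 vehicle replicate 2 (adjusted p = 0.11) and without SEM-K2 3xEC50 replicate 2 (adjusted p = 0.12), with changes of 0.96 and 0.90. The call over both doses was lost in 7 of the 12 fits without 1 array, and without SEM-K2 vehicle replicate 2 the change was 0.79 (adjusted p = 0.19). The second OAS3 probe set was above the floor on 0 arrays, and averaging both gave 0.50 at 3xEC50 (adjusted p = 0.11).

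IFIH1, the cytoplasmic sensor MDA5, read 7.66 and 7.04 in SEM-K2 under vehicle, 8.17 and 8.31 at EC50, and 8.55 and 8.48 at 3xEC50. In RS4:11 it read 7.64 and 7.06 under vehicle, 7.86 and 7.52 at EC50, and 7.60 and 7.85 at 3xEC50, so that treated and vehicle arrays overlapped in RS4:11 and not in SEM-K2. At 3xEC50 in SEM-K2 the change was 1.17 ± 0.25, with an adjusted p of 0.099 that became 0.038 with the replicate block. Without SEM-K2 vehicle replicate 2 it was 0.86 (adjusted p = 0.54, no block). In both lines vehicle replicate 1 was higher than vehicle replicate 2.

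DDX60, a helicase that promotes signalling by RNA sensors, read 7.69 and 8.09 in SEM-K2 under vehicle, 8.55 and 8.46 at EC50, and 8.29 and 8.23 at 3xEC50. RS4:11 gave 5.99 and 5.67 under vehicle, 6.97 and 6.34 at EC50, and 6.77 and 7.03 at 3xEC50. Treated arrays lay above vehicle in both lines, by 1.07 ± 0.23 at 3xEC50 in RS4:11 (adjusted p = 0.42) and 0.37 ± 0.23 in SEM-K2 (adjusted p = 0.60). Its average over both lines was 0.72 ± 0.14 (adjusted p = 0.060, or 0.029 with the replicate block).

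OAS1 read 6.08 and 5.38 in SEM-K2 under vehicle, 6.60 and 6.29 at EC50, and 6.78 and 6.19 at 3xEC50. The RS4:11 values were 5.74 and 5.02 under vehicle, 6.16 and 6.18 at EC50, and 6.19 and 6.55 at 3xEC50. On the OAS1 probe set used, all 8 treated arrays lay above the vehicle arrays of their line. The average change was 0.81 ± 0.19 (adjusted p = 0.11, or 0.029 with the replicate block), with 0.74 in SEM-K2 and 0.89 in RS4:11. Its other probe set averaged 0.97, with 1.51 in SEM-K2 and 0.44 in RS4:11. There RS4:11 vehicle replicate 1, at 4.67, lay above EC50 replicate 1 (4.52) and 3xEC50 replicate 2 (4.50). OAS2 read 5.22 and 5.40 in SEM-K2 under vehicle, 6.29 and 5.79 at EC50, and 5.83 and 5.82 at 3xEC50. Levels in RS4:11 were 7.83 and 7.51 under vehicle, 7.96 and 8.25 at EC50, and 8.09 and 8.08 at 3xEC50. On this probe set it too was above vehicle on all treated arrays, with an average change of 0.52 ± 0.12 (adjusted p = 0.10, or 0.047 with the replicate block). Its other probe sets averaged 0.38 and 0.21, and on the first of them RS4:11 vehicle replicate 1, at 8.01, lay above all 4 treated arrays of that line. EIF2AK2, the RNA-activated kinase PKR, read 9.19 and 9.67 in SEM-K2 under vehicle, 9.37 and 9.67 at EC50, and 9.35 and 9.68 at 3xEC50. The RS4:11 values were 9.78 and 9.77 under vehicle, 9.73 and 9.80 at EC50, and 9.79 and 9.66 at 3xEC50. Each treated group overlapped its vehicle group, and the average change was 0.03 ± 0.12 (adjusted p = 0.94). Another EIF2AK2 probe set, above the floor on 12 arrays, averaged −0.21, with −0.13 in SEM-K2 and −0.29 in RS4:11. A further one, above the floor on 2 arrays, averaged 0.33. OASL, the remaining member, was below the floor on both of its probe sets.

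Of the IFIT proteins, IFIT3 read 7.53 and 7.03 in SEM-K2 under vehicle, 8.27 and 7.90 at EC50, and 8.26 and 7.67 at 3xEC50. In RS4:11 it read 7.55 and 6.26 under vehicle, 8.11 and 7.21 at EC50, and 8.32 and 7.58 at 3xEC50. Replicate 1 was higher than replicate 2 in all 6 groups, so the average change of 0.82 ± 0.29 had an adjusted p of 0.23 and one of 0.013 with the replicate block. Its second probe set changed by 0.20 in the same average. IFIT2 lay between 4.89 and 6.08 with an average change of 0.38 ± 0.19 (adjusted p = 0.40), and IFIT5 between 7.69 and 8.41 with −0.03 ± 0.13 (adjusted p = 0.95).

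The 3 transcription factors tested had average changes of 0.43 to 0.48, and none passed the test with or without the block. IRF1 read 8.83 and 8.45 in SEM-K2 under vehicle, 9.19 and 9.21 at EC50, and 9.37 and 9.67 at 3xEC50. RS4:11 gave 9.10 and 8.69 under vehicle, 8.97 and 9.54 at EC50, and 9.01 and 9.09 at 3xEC50. Its change at 3xEC50 was 0.88 ± 0.23 in SEM-K2 (adjusted p = 0.19) and 0.15 ± 0.23 in RS4:11 (adjusted p = 1.0). IRF7, the amplifier of interferon gene transcription, read 8.12 and 7.35 in SEM-K2 under vehicle, 8.40 and 8.0 at EC50, and 8.65 and 8.25 at 3xEC50. The RS4:11 values were 8.0 and 8.01 under vehicle, 8.37 and 8.17 at EC50, and 8.34 and 8.19 at 3xEC50, an average change over both lines of 0.43 ± 0.16 (adjusted p = 0.26). IRF9, the DNA-binding partner of STAT2, read 6.93 and 6.65 in SEM-K2 under vehicle, 7.13 and 6.95 at EC50, and 7.45 and 6.77 at 3xEC50. Levels in RS4:11 were 6.16 and 6.20 under vehicle, 6.62 and 6.92 at EC50, and 6.71 and 6.78 at 3xEC50, and the average change was 0.43 ± 0.14 (adjusted p = 0.21).

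PARP9 and DTX3L, which work as a pair in ADP-ribosylation and ubiquitination after interferon, were above vehicle on all treated arrays of both lines. PARP9 read 7.14 and 6.62 in SEM-K2 under vehicle, 7.54 and 7.19 at EC50, and 7.50 and 7.92 at 3xEC50. In RS4:11 it read 7.05 and 6.69 under vehicle, 7.31 and 7.53 at EC50, and 7.15 and 7.19 at 3xEC50, and its average change was 0.54 ± 0.14 (adjusted p = 0.14). DTX3L had the smaller average change, 0.22 ± 0.08 (adjusted p = 0.27), on levels of 10.48 to 10.88. PARP14 averaged 0.22 ± 0.12 and PARP12 averaged −0.24 ± 0.15, the lowest average of the 32 genes, and neither passed the test.

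SAMD9L, an antiviral protein and growth suppressor of blood cells, read 6.39 and 6.11 in SEM-K2 under vehicle, 6.96 and 6.66 at EC50, and 7.03 and 7.31 at 3xEC50. RS4:11 gave 6.46 and 5.40 under vehicle, 6.65 and 7.05 at EC50, and 6.65 and 6.70 at 3xEC50. On this probe set all treated arrays lay above vehicle, with an average change of 0.79 ± 0.19 (adjusted p = 0.11, or 0.052 with the block). Another SAMD9L probe set, above the floor on 8 arrays, averaged 0.73 and overlapped vehicle in both lines. On it SEM-K2 vehicle replicate 1, at 5.50, lay above both EC50 arrays, at 5.48 and 4.96. Its RS4:11 3xEC50 replicate 2, at 3.40, lay below both vehicle arrays, at 3.71 and 3.77. CMPK2, a mitochondrial nucleotide kinase, read 6.89 and 6.83 in SEM-K2 under vehicle, 7.33 and 7.42 at EC50, and 7.27 and 7.48 at 3xEC50. The RS4:11 values were 7.59 and 7.75 under vehicle, 8.03 and 7.69 at EC50, and 7.95 and 8.14 at 3xEC50, an average change of 0.40 ± 0.10 (adjusted p = 0.12). The remaining antiviral effectors, MX2, TRIM22, SAMD9, BST2 and IFITM1, had average changes of 0.04 to 0.40, and none passed the test. IFITM1, a membrane protein that blocks viral entry, had replicate 1 above replicate 2 in all 6 groups, as in SEM-K2 vehicle with 7.73 and 6.20. IFI6, XAF1, LGALS3BP and SP110 had average changes of −0.02 to 0.08, and IFI44 is described with the differences between the lines.

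**Figure D3:**
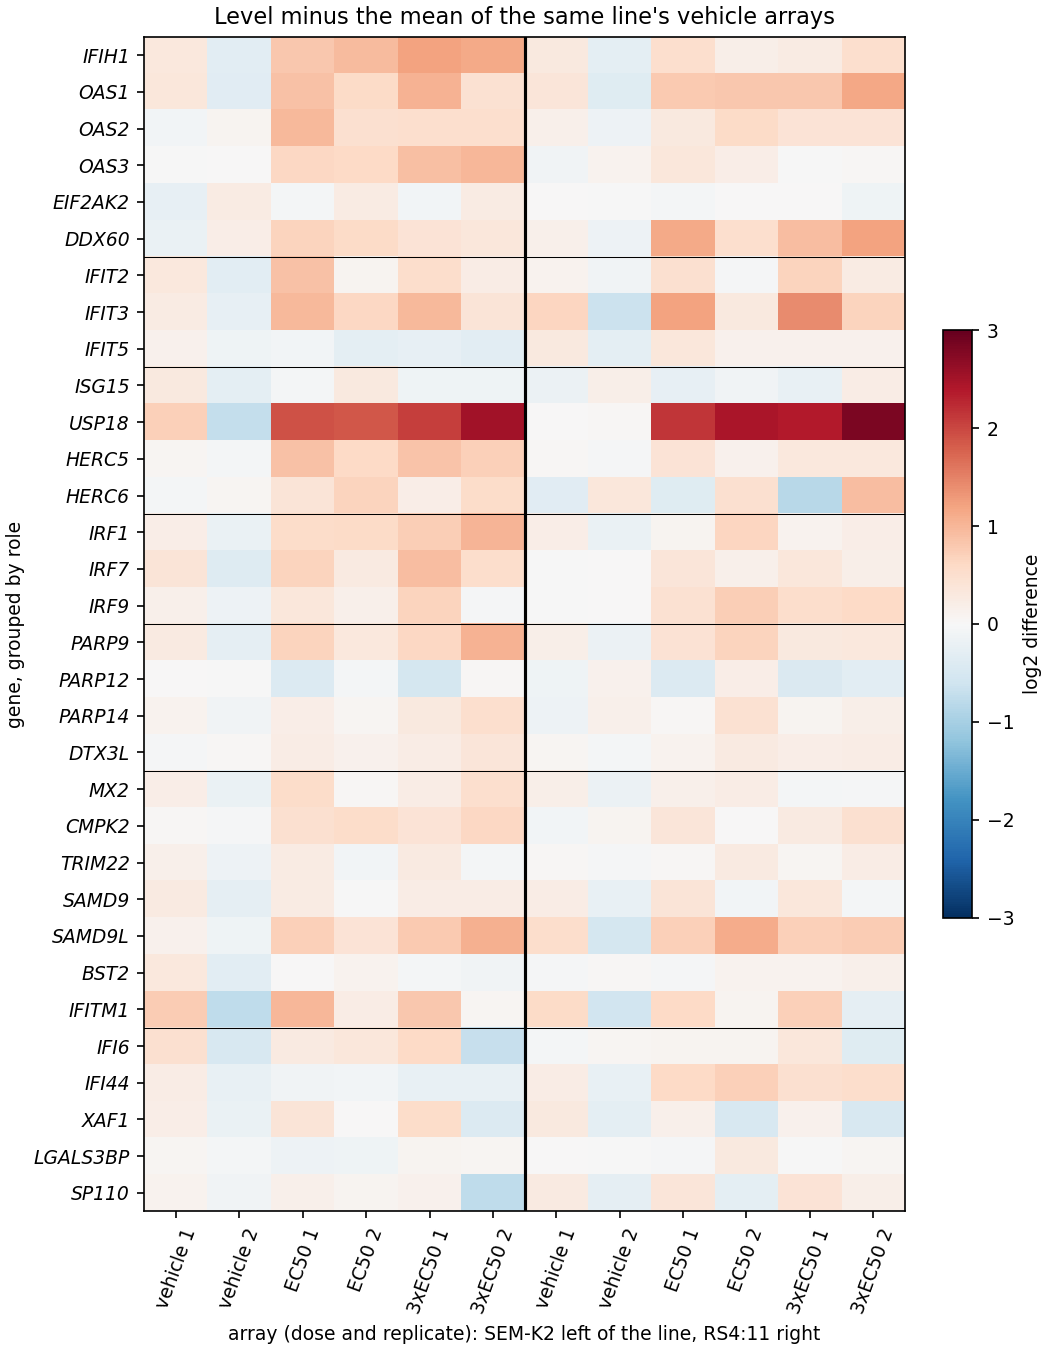
Difference in log2 level of each array (columns, by line, dose and replicate) from the mean of its line's 2 vehicle arrays, for the 32 genes tested (rows, grouped by role; red is higher). Levels below the floor were set to it, which applies to USP18 in RS4:11 vehicle. The row of USP18 is the most strongly coloured in both lines, and the vehicle columns themselves are split. Replicate 1 lies above replicate 2 in most rows of SEM-K2 vehicle, as it did for 62.5% of all genes tested.

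Counted over the 32 genes, 2 (USP18 and OAS3) rose and 0 fell in SEM-K2 at 3xEC50, where 0.824% of all genes tested were called. With the replicate block, 4 rose, IFIH1 and HERC5 in addition, where 2.08% of all genes were called. Both arrays lay above both vehicle arrays in 17 of the 32 (22.6% of all genes) and below them in 1, IFIT5 (14.0%). The other IFIT5 probe set went the opposite way, with 7.29 and 7.46 at 3xEC50 against 7.18 and 7.04 under vehicle. The median change was 0.37, against 0.06 over all genes tested. Without SEM-K2 vehicle replicate 2 that median was 0.31 with 0 genes called, without SEM-K2 3xEC50 replicate 2 it was 0.46 with 0 called, and without SEM-K2 vehicle replicate 1 it was 0.48 with 3 called.

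In SEM-K2 at EC50, limma called 0 of the 32 (0.17% of all genes were called), and 9 had an unadjusted p under 0.05, a share of 5.47% among all genes. Both arrays lay above vehicle in 15 of the 32 (21.8% of all genes) and below in 2, PARP12 and LGALS3BP (11.8%). The median change was 0.39, against 0.05 over all genes, and it dropped to 0.14 without SEM-K2 vehicle replicate 2. With the doses averaged, 3 genes rose in SEM-K2, USP18, OAS3 and HERC5, where 0.748% of all genes were called, and the block, which called 2.09% of all genes, added IFIH1. Without SEM-K2 vehicle replicate 2, 0 were called and the median change over both doses was 0.18 in place of 0.38.

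In RS4:11, limma called 0 of the 32 at 3xEC50 and 0 at EC50, where it also called 0.0% of all genes, and 7 genes had an unadjusted p under 0.05 at each dose (4.9% and 4.2% of all genes). Without either one of the SEM-K2 vehicle arrays, which enter only the shared estimate of the spread, USP18 was called at both doses (adjusted p = 0.020 at 3xEC50 and 0.049 at EC50). Both arrays lay above vehicle in 16 of the 32 at 3xEC50 (18.4% of all genes) and in 14 at EC50 (17.5%), and below in 1 at 3xEC50, PARP12 (15.9%), and in 0 at EC50 (12.9%). The median change was 0.22 at 3xEC50 and 0.24 at EC50, against 0.02 over all genes at each dose. Over both doses 0 were called and 7 had an unadjusted p under 0.05 (5.93% of all genes), and with the block 1 was called, USP18, with 0.161% of all genes.

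In the average over both lines and doses 3 of the 32 rose, USP18, OAS3 and HERC5, and 0 fell, where 0.833% of all genes were called. With the replicate block 8 rose, where 4.1% of all genes were called, and the 5 added were IFIH1, OAS1, OAS2, DDX60 and IFIT3. The median change was 0.32, against 0.04 over all genes, and 28 of 32 changes were above 0, against 59.3% of all genes. OAS3 and HERC5 also lost the call with median-centred arrays (adjusted p = 0.087 and 0.070). All 4 treated arrays lay above both vehicle arrays in both lines for 8 genes: USP18, OAS1, OAS2, DDX60, HERC5, SAMD9L, PARP9 and DTX3L, each on the probe set used. The same held for 3.61% of all genes. These comparisons share their vehicle arrays, so they do not support each other independently.

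**Figure D4:**
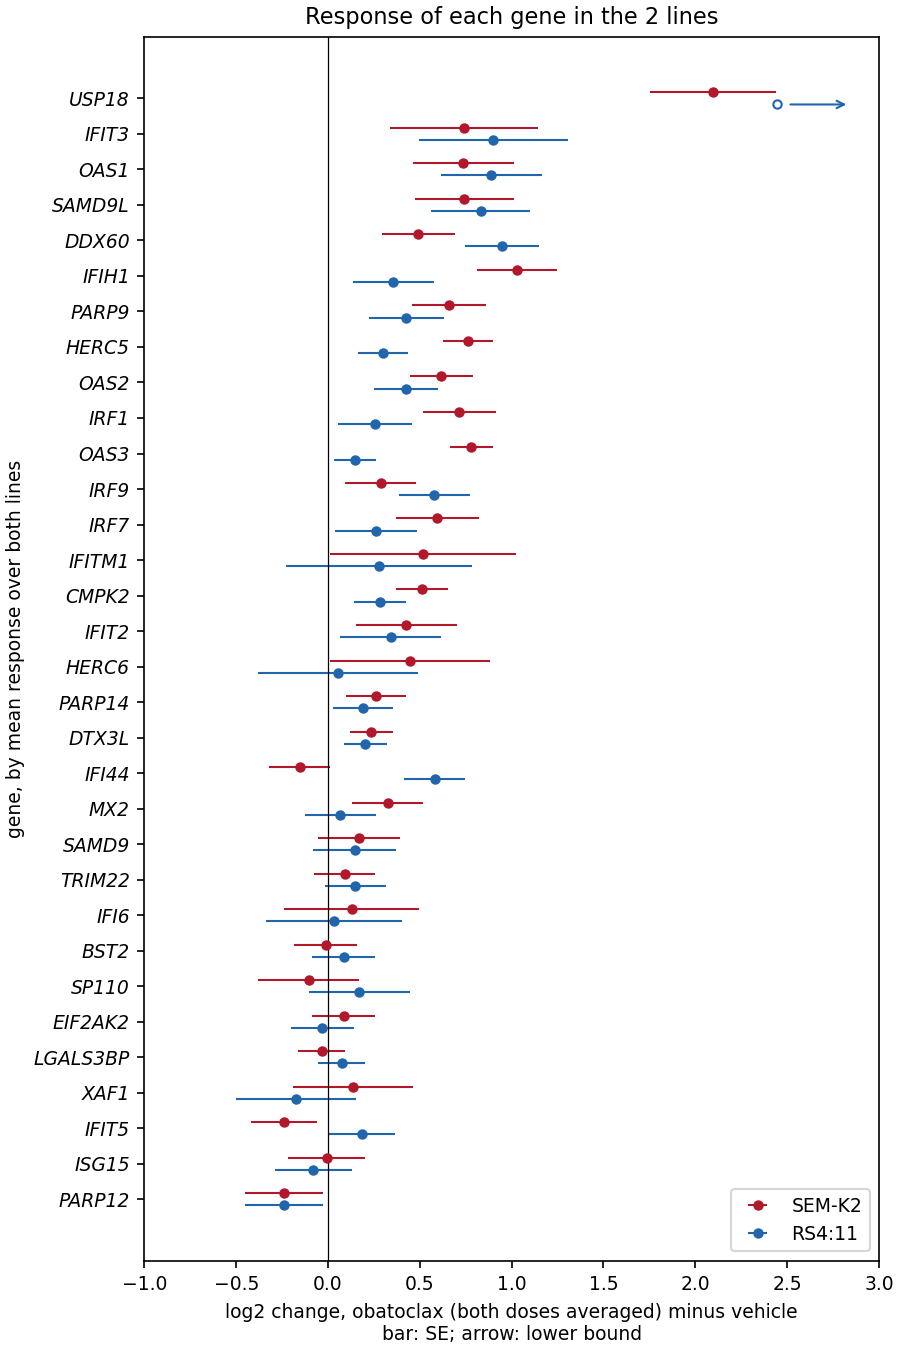
Log2 change under obatoclax, both doses averaged, against vehicle (x axis) in SEM-K2 (red) and RS4:11 (blue) for each of the 32 genes tested (rows, by average response), with the standard error as a bar. USP18 stands at 2.10 in SEM-K2 and at or above 2.45 in RS4:11 (open circle with an arrow, a lower bound from the floor), every other change is at most 1.03, and IFI44 lies below 0 in SEM-K2 and above 0 in RS4:11.

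The dose step was small. From EC50 to 3xEC50, limma called 0 of the 32 in either line (0.0% of all genes), and the median step was 0.01 in SEM-K2 and −0.01 in RS4:11. OAS3 in SEM-K2, with a step of 0.35, was the 1 gene with an unadjusted p under 0.05, and RS4:11 had 0 (2.22% and 0.805% of all genes). The doses are multiples of each line's EC50 as the labels give them, and 6 h is far shorter than the 72 h of that assay.

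Whether the lines responded differently was tested as the difference between their changes, SEM-K2 minus RS4:11. Limma called 0 of the 32 at 3xEC50, at EC50 or over both doses, where 0.0379%, 0.00947% and 0.0663% of all genes were called. Unadjusted p was under 0.05 for 2, 1 and 3 genes (3.69%, 1.75% and 2.81% of all genes). OAS3 differed by 0.94 ± 0.19 at 3xEC50 (unadjusted p = 0.00076, adjusted p = 0.41). IFI44, a cytoplasmic protein of unsettled function, read 4.82 and 4.36 in SEM-K2 under vehicle, 4.48 and 4.50 at EC50, and 4.37 and 4.37 at 3xEC50. Levels in RS4:11 were 5.70 and 5.26 under vehicle, 6.08 and 6.19 at EC50, and 5.95 and 6.01 at 3xEC50. Its treated arrays lay above vehicle in RS4:11 and within the vehicle range in SEM-K2, a difference over both doses of −0.73 ± 0.24 (adjusted p = 1.0). For USP18 no difference is given, since its change in RS4:11 is a lower bound.

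Without drug, 3 of the 32 genes were higher and 4 lower in SEM-K2 vehicle than in RS4:11 vehicle. These 7 are 21.9% of the 32, near the 19.6% of all genes that were called. With the replicate block, where 26.8% of all genes were called, PARP12 was added, at 7.62 and 7.57 in SEM-K2 vehicle, against 8.14 and 8.41 in RS4:11 vehicle (−0.68 ± 0.25, adjusted p = 0.091, or 0.018 with the block). DDX60 was higher by 2.06 ± 0.23 (4.17-fold, adjusted p = 1.9e-04), HERC5 by 1.31 ± 0.16 (2.48-fold, adjusted p = 3.0e-04) and USP18 by at least 4.37-fold from the floor (adjusted p = 0.0036). OAS2 was lower in SEM-K2 by a log2 value of −2.36 ± 0.20 (adjusted p = 2.5e-05), and its other probe sets gave −2.50 and −1.40. MX2, a GTPase that restricts HIV-1, read 5.32 and 4.93 in SEM-K2 vehicle, against 6.48 and 6.11 in RS4:11 vehicle (−1.17 ± 0.22, adjusted p = 0.0046). Under obatoclax MX2 read 5.68 and 5.16 at EC50 and 5.34 and 5.62 at 3xEC50 in SEM-K2, and 6.45 and 6.51 at EC50 and 6.24 and 6.25 at 3xEC50 in RS4:11. IFI44 differed by −0.89 ± 0.19 (adjusted p = 0.0097) and CMPK2 by −0.81 ± 0.16 (adjusted p = 0.0069). The USP18 difference was at least 7.22-fold without SEM-K2 vehicle replicate 2 and at least 2.64-fold without replicate 1, and it passed the test both times. The IFI44 call was lost without RS4:11 vehicle replicate 1 or SEM-K2 vehicle replicate 2 (−0.67 and −0.66), and the CMPK2 call without RS4:11 vehicle replicate 2 (−0.73). Within the OAS family, vehicle levels of OAS1 and OAS3 differed between the lines by 0.35 ± 0.32 and 0.11 ± 0.13 and did not pass the test.

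**Figure D5:**
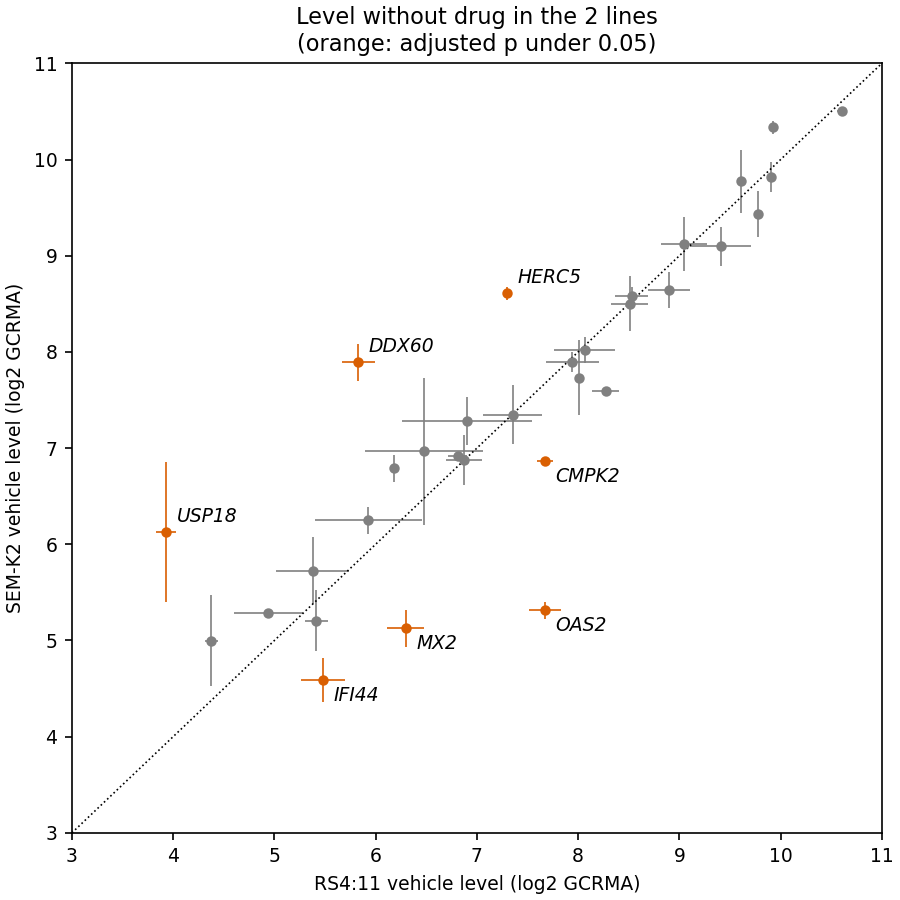
Mean level under vehicle in SEM-K2 (y axis) against RS4:11 (x axis), both log2 GCRMA, for the 32 genes tested; bars span the 2 replicates and the dotted line marks equality. The 7 genes in orange passed the test: USP18, DDX60 and HERC5 lie above the line and OAS2, MX2, IFI44 and CMPK2 below it.

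Upstream of these genes, the receptor chains were expressed: IFNAR1 lay between 7.15 and 7.80 and IFNAR2 between 8.54 and 9.51 on the 12 arrays. Of 10 receptor, JAK and STAT genes tested, limma called 1 in the average over both lines and doses, IFNLR1, the receptor chain for type III interferon, and the median change was 0.18. All 3 group means of IFNLR1 in SEM-K2 were below the floor, so that average is not read as a change here. In RS4:11 its group means were 5.42 under vehicle, 6.50 at EC50 and 6.48 at 3xEC50, a change over both doses of 1.07 ± 0.18 that did not pass the test (adjusted p = 0.15). Of 21 sensing genes tested, 0 passed in that average and 4 had an unadjusted p under 0.05, where 14.6% of all genes did (median change 0.08). SAMHD1, which degrades nucleotides and limits sensing, fell by 1.88 ± 0.33 in SEM-K2 at 3xEC50 (adjusted p = 0.041), and without SEM-K2 vehicle replicate 2 its change was −2.16 (adjusted p = 0.14). In the average its change was −1.04, which passed with the replicate block alone. The largest average increases in that list were IRF5 at 0.84 ± 0.20 and STING1 at 0.75 ± 0.21, and they did not pass the test (adjusted p = 0.11 and 0.16).

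Of 11 negative regulators tested, 0 passed in the average and 3 had an unadjusted p under 0.05, against the same 14.6% of all genes (median change 0.08), and NLRC5 (0.51 ± 0.13) passed with the block alone (adjusted p = 0.046). Of 24 further interferon-stimulated genes outside the 40, 0 were called in the average over both lines and doses, by limma with or without the block, and 3 had an unadjusted p under 0.05, with a median of 0.14. RTP4 at 0.58 ± 0.22 and ISG20 at −0.51 ± 0.15 had the largest changes among them. Of 18 interferon gamma targets and antigen presentation genes tested, 0 were called and 6 had an unadjusted p under 0.05, with a median of 0.25. Over all genes those figures were 14.6% and 0.04. WARS1 at −0.56 ± 0.16 passed with the block alone (adjusted p = 0.033), and GBP4 averaged 0.48 ± 0.18. The chemokines CXCL9, CXCL10 and CXCL11, and GBP5 and IDO1, were above the floor on 0 arrays.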

How the data were processed

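RNA of 12 samples was measured on Affymetrix U133 Plus 2 arrays, 2 for each of 6 groups. The authors made the deposited values with GCRMA (version not stated), per the submitters' processing notes, a method that corrects background by probe sequence and normalizes between arrays by quantiles. The deposited values are read here as log2, a scale that no source states, because they run from 0.64 to 16.22 with array medians of 3.13 to 3.16. Scanner files were not used here. Of 54675 probe sets, 41091 had 1 gene symbol, 1801 had several and were left unnamed, and 11777 were not listed in the platform annotation. Of the named, 41037 matched RefSeq genes. Arrays have no read depth, and precision rests on how many there are.

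The package limma 3.58.1 (R 4.3.3) fitted 6 group means by lmFit and eBayes to 10561 genes, each by a single probe set. Residual degrees of freedom were 6 and prior ones 3.27. P-values were two-sided and adjusted by Benjamini-Hochberg over all genes within a comparison, and a gene passed at an adjusted p under 0.05. The symbol ± marks the SE of a log2 change. The fit was tested on simulated data. Other steps used Python 3.11.15 with pandas 2.3.3, numpy 2.4.6 and matplotlib 3.10.9.

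Replicate numbers come from the sample titles. Deviations of same-numbered arrays from their group means correlated in all 15 pairs of groups (r of 0.19 to 0.60), so the numbers were taken to pair the samples and fits with the replicate number as a block are given where they change a call. Further alternatives were a block within each line, the mean of all probe sets, no filter, a floor of 6, probe sets without the _x_at suffix, trend and robust eBayes, median-centred arrays, quantile normalization, only the arrays compared, and leaving out each array in turn, where a lone array is assumed to vary like the other groups.

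The genes and lists were chosen with earlier results of these data known. Array by array values are given for USP18, the RNA sensors, genes called in any comparison, genes with both treated arrays beyond vehicle by at least 0.5 in a dose comparison, and the 6 genes that differed most between the vehicle groups. Of other pathway lists, called genes are named, or else the 2 with the largest average changes. Other genes are given by range. No tested gene of the list rests on an _x_at probe set and 11 rest on an _s_at probe set, whose probes can match several transcripts. Among 17 further probe sets above the floor, of 11 genes, 15 had the same sign of average change as the one used and 2 the opposite.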

Additional observations from a re-analysis of the deposited data

How the results depend on the processing

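The number of genes of the list that passed the test was small and moved with the fit, while no tested change reversed its sign where it had passed. In SEM-K2 at 3xEC50 the 2 genes became 4 with the replicate block, 5 with a replicate block within each line, 1 with no filter, and 0 with the mean of all probe sets or with only the arrays compared, and 0 to 3 without 1 array. In SEM-K2 over both doses the 3 became 6 with the block within each line, 1 with no filter or median-centred arrays, 0 with only the arrays compared, and 0 to 2 without 1 array. Over both lines and doses the 3 became 8 with the block, 9 with the block within each line, 1 with median-centred arrays or quantile normalization, and 1 to 3 without 1 array. In RS4:11 over both doses the 0 became 1 with either block and 0 to 1 without 1 array. At EC50 in SEM-K2 and at both doses in RS4:11 the 0 was 0 to 1 without 1 array. The cause of these shifts was not tested, except that fits without 1 array or with only the arrays compared hold fewer samples. Shares of all genes called are given here only for the main fit and the replicate block. Counts under the other alternatives are therefore not read as particular to the list. The vehicle comparison, with 7 genes, had 6 to 8 without 1 array and 5 to 9 under the other alternatives. With only the arrays compared, no value could be had for the average over both lines. In the comparisons with vehicle, medians over the 32 genes stayed above 0 under every alternative run, at 0.14 or more. With 2 arrays a group, changes of a log2 value near 1 or less often fail the test here.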
